A study of Mus musculus with 84 samples.

Results

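The 10 genes described here encode proteins through which leukocytes take hold of vessel walls and other cells: the adhesion molecules Icam1, Icam2, Icam4 and Vcam1, the integrin subunits Itgal, Itgam, Itgax, Itgb2 and Itga4, and the selectin ligand Selplg. They were chosen by name, and 10 of 10 were found among the 21851 protein-coding genes of the mouse annotation (GENCODE, build GRCm38). Histone marks were mapped with CUT&Tag (an enzyme led by an antibody cuts and tags the DNA around the marked histones) in nuclei of labelled adipocytes from epididymal fat. All mice carried AdipoERCre and NuTRAP on a background given as C576BL6, so that tamoxifen, given to every mouse before the diets began, switched on a nuclear label through a Cre driven by the adiponectin promoter. In the 12-week cohort, H mice ate a high-fat diet for 12 weeks and were taken at 18 weeks of age, and HC mice were switched after those 12 weeks to 8 weeks of chow and taken at 26 weeks. Chow alone was fed to their controls C (18 weeks) and CC_s (26 weeks). The 25-week cohort comprised HH mice, fed the high-fat diet for 25 weeks and taken at 31 weeks of age, HHC mice, returned to chow for 8 further weeks and taken at 39 weeks, and their chow-fed controls CC_l (31 weeks) and CCC (39 weeks). Each of 4 marks (H3K4me3, H3K27me3, H3K27ac and H3K4me1) was measured in each of 8 diet groups with 2 or 3 replicate libraries, 84 libraries in all. Only 2 libraries were at hand for CC_l and CCC with every mark, for HH with H3K4me3 and H3K27me3, for H with H3K27me3 and for CC_s with H3K27ac.

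Leukocytes first roll on selectins, which bind the protein made from Selplg. They then stop when their integrins bind vessel wall ligands. Itgal pairs with Itgb2 to bind the Icam proteins, Itgam and Itgax pair with the same Itgb2, and Itga4 pairs with Itgb1 to bind Vcam1. Icam1 and Vcam1 are classic targets of the inflammatory factor NF-kB, and macrophages that collect in obese fat are known to carry Itgax. Promoters in use carry H3K4me3, enhancers carry H3K4me1, both carry H3K27ac when active, and polycomb proteins deposit H3K27me3 where genes are kept silent.

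The measurement at each gene was whether a peak of the mark lay in the promoter window (2000 bp either side of each annotated start site), and how many base pairs of the window peaks covered. A list keeps only the strongest blocks of signal of its library, so a window without a peak is one that did not reach the list and is not one shown to lack the mark. Lists held 11249 to 46397 peaks. For H3K4me3 they held 11249 to 28592 in the 12-week and 32225 to 41976 in the 25-week cohort, and for H3K4me1 14486 to 27244 and 29833 to 40682, so the cohorts differ in the number of peaks, and cohort and library preparation cannot be told apart. Windows were 4001 bp wide at 5 genes. The others were Icam4 (4082 bp), Vcam1 (4232 bp), Itgam (4044 bp), Itgax (4005 bp) and Itgal, whose 5 start sites gave 8152 bp.

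Sequences are shown for the genes on which the results below turn, to give the reader the DNA that the marks lie on. The RefSeq promoter table (GRCm38.p6) held 5 of the 10 genes, Icam1, Icam4, Itgam, Itgax and Itga4. Each line gives 191 to 250 bases upstream of the RefSeq start site, leaving out any that lie inside the GENCODE gene, 5′ to 3′ on the plus strand, on which all 5 genes lie. Capitals mark matches on either strand to GGG and CC with any 5 bases between them or to GGANNTTCC (NF-kB), TTCNNNGAA (STAT), GAGGAAGT (PU.1), TGANTCA (AP-1), a pair of GAAA with any 2 bases between them (IRF), GGGCGG (Sp1) or TATAAA.
Icam1 (chr9:21015690-21015939): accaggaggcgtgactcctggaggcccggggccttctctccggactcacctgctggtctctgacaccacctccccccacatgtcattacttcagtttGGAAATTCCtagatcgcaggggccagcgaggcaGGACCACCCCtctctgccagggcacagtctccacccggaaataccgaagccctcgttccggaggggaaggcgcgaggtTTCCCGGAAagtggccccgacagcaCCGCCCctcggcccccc
Itga4 (chr2:79255176-79255425): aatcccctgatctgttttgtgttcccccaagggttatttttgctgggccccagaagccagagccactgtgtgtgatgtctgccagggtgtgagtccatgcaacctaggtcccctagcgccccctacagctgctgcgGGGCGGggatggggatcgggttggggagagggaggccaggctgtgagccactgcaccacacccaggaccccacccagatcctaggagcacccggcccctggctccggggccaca
Icam4 (chr9:21029182-21029372): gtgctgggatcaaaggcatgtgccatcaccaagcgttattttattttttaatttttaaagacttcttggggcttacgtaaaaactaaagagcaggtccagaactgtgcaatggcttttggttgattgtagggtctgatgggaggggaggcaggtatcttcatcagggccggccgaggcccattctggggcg
Itgax (chr7:128129300-128129546): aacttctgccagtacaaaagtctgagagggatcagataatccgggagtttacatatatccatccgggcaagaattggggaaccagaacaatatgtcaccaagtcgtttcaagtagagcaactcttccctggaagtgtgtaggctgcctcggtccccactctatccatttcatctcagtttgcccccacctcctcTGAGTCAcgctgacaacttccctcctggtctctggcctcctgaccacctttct
Itgam (chr7:128062390-128062639): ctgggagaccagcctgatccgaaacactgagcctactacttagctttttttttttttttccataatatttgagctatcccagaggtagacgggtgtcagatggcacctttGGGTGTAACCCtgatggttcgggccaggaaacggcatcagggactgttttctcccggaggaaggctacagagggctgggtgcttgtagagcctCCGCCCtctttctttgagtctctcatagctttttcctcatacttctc
The Icam1 bases held GGAAATTCC, which matches the NF-kB letters GGANNTTCC on both strands, at chr9:21015787-21015795, and TTCCCGGAA, which matches the STAT letters, at chr9:21015898-21015906. Among the 250 bases before the start sites of 32851 promoters, 3.59% held GGANNTTCC and 7.02% held TTCNNNGAA. The looser NF-kB letters, GGG and CC 5 bases apart, matched in Icam1 and, in overlapping places, in Itgam, and 45.8% of promoters held them. GGGCGG matched in Icam1, Itga4 and Itgam, against 32.7% of promoters, and TGANTCA in Itgax, against 6.75%. The Icam4 bases held none of the 8 letter patterns, and no printed promoter held GAGGAAGT (2.44% of promoters), the IRF letters (2.98%) or TATAAA (12.4%). A match of letters is not a bound site.

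Icam1 lies on the plus strand of chromosome 9 (chr9:21015985-21028817), followed at once by Icam4 (chr9:21029373-21030595) and then Icam5, so that the flanks of Icam1 and Icam4 share most of their bases. Itgam (chr7:128062640-128118491) and Itgax (chr7:128129547-128150657) are also neighbours with shared flanks. The other genes are Icam2 (chr11:106377656-106388075), Vcam1 (chr3:116109949-116129688), Itgal (chr7:127296260-127335138), Itgb2 (chr10:77530252-77565708), Itga4 (chr2:79255426-79333123) and Selplg (chr5:113818536-113832644).

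Several libraries stood apart in the promoters of adipocyte markers (Adipoq, Plin1, Cidec, Lep, Fabp4, Pparg, Lpl, Lipe, Pnpla2 and Cfd). Summed over these 10 windows, H3K4me3 covered 383% of a window in HHC replicate 3 against 750% and 922% in the other HHC libraries, and 323% in HC replicate 3 against 531% and 610%. For H3K27ac the sum was 390% in HHC replicate 3 against 817% and 888%, 298% in HC replicate 3 against 444% and 619%, and 340% in HH replicate 1 against 902% and 920%. H3K4me1 gave sums of 42.6% in HC replicate 3, 118% in HH replicate 1 and 273% in HHC replicate 3. The H libraries were also low for H3K27ac, at 268% to 486% against 804% to 908% in C. The lowest H3K4me3 count was in H replicate 3, with 11249 peaks. Counts and tests were repeated without HC replicate 3, HHC replicate 3 and HH replicate 1, and changes in the calls are stated with the results. Since a list is made from a pool of nuclei, more nuclei that carry a mark and more of the mark per nucleus cannot be told apart.

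H3K27me3 lay over 2 of the 10 promoters, Icam1 and Itga4, in 10 of 10 control libraries, and in libraries of mice that had eaten the high-fat diet it was present less widely at both. At Icam1 it was found in 3 of 10 diet libraries and at Itga4 in 7 of 10. The other promoters had it rarely: Itgal in 6 of 20 libraries, Icam4 in 5, Itgb2 in 1 and Selplg in 1, while Icam2, Vcam1, Itgam and Itgax had it in 0 of 20. The median peak at Itga4 ranked above 78.3% of the peaks of its own library by total signal, and that at Icam1 above 72.1%. H3K27me3 peaks also differed over the whole genome. Their median width was 549 and 592 bp in H against 1242 to 1425 bp in C, and they covered 16.9 and 19.97 Mb against 43.03 to 64.1 Mb. In HC they covered 8.54 to 36.3 Mb against 43.2 to 60.5 Mb in CC_s, whereas HH (50.1 and 101 Mb) overlapped CC_l (69.3 and 110 Mb), and HHC (77.95 to 82.9 Mb) lay above CCC (61.4 and 70.4 Mb). The part of this genome-wide difference in the 12-week values at single genes was not tested.

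At the Icam1 promoter, peaks covered 1853, 2368 and 3687 bp of the 4001 bp window in C and 0 and 0 bp in H. They covered 4001 and 3889 bp in CC_l and 1530 and 689 bp in HH. No library of an obese group reached the lowest control of its cohort, and the groups did not overlap. The difference, obese minus control, averaged -68.4 percentage points of the window (-65.9 in the 12-week and -70.9 in the 25-week cohort), with an unadjusted p = 0.0167 in the exact permutation test, the smallest this design allows, and an adjusted p = 0.395 over the 8524 genes tested. Icam1 was the 1 adhesion gene of 6 tested that was lower, a call made for 6.01% of all genes tested. With any 1 of the 3 C libraries left out the exact permutation p was 0.0556, the smallest that those sizes allow. The call was not made with windows of 500 bp on either side (-53.5 percentage points, exact permutation p = 0.0667), by presence (p = 0.1) or with the stronger peaks alone (those above the median total signal of their list) (-61.7 percentage points, p = 0.167).

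After weight loss the Icam1 window was covered over 672, 0 and 0 bp in HC against 2215, 2107 and 3647 bp in CC_s, and over 0, 0 and 0 bp in HHC against 1463 and 3535 bp in CCC. Again the groups did not overlap in either cohort. The mean cover in HC was 5.60% ± 9.70 (SD, n = 3), and in CC_s it was 66.4% ± 21.5 (SD, n = 3). The averaged difference was -61.6 percentage points (unadjusted p = 0.005 in the exact permutation test, the smallest possible here, adjusted p = 0.354 over 9058 genes). Without HC and HHC replicate 3 it was -60.2 percentage points (exact permutation p = 0.0167, the smallest that these sizes allow). By presence alone, Icam1 had lost its peak in H against C, as had 1.61% of all promoters, and in HHC against CCC, as had 0.732% of them. With the stronger peaks alone neither loss was called, and that in HHC was not called with equal numbers of peaks. The stronger peaks alone instead called Icam1 lost in HC against CC_s and in HH against CC_l. Windows of 1000 bp on either side also called it lost in HC.

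**Figure D1:**
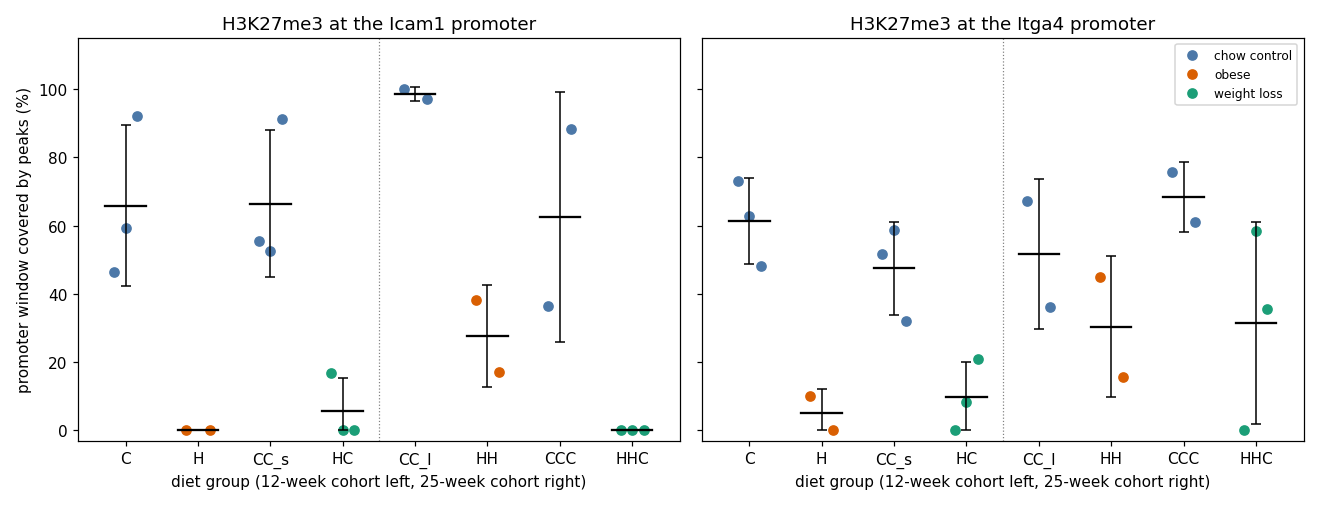
Share of the promoter window covered by H3K27me3 peaks (y axis, %) at Icam1 (left) and Itga4 (right) in each library, by diet group (x axis). Points are libraries, horizontal lines means and bars the SD, cut at 0. At Icam1 the H and HHC libraries are all at 0, and every control library lies above every diet library of its comparison, whereas at Itga4 HH and CC_l overlap.

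The width of the Icam1 block differed between libraries. In CC_l replicate 1 a single peak of 7592 bp ran from 4.07 kb upstream to 3.52 kb downstream of the start site, and in CC_l replicate 2 a peak of 5285 bp ran from 1.89 kb upstream to 3.40 kb downstream. In HH the peaks measured 1530 and 689 bp. The 1 peak left in HC, of 672 bp, lay 1.21 to 1.88 kb downstream of the start site and so within the gene. A second H3K27me3 block, over Icam5, had a peak in each of the 20 lists.

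Over the gene body, H3K27me3 covered 7.64%, 8.11% and 14.8% of Icam1 in C and 0% and 0% in H, and 27.5% and 26.5% in CC_l against 2.45% and 0% in HH. The averaged difference was -18.0 percentage points (unadjusted exact permutation p = 0.0167, adjusted p = 0.296), a call made for 8.06% of the 9846 genes tested. After weight loss the body was covered over 14.5%, 0% and 0% in HC against 18.6%, 8.38% and 25.4% in CC_s, and over 0%, 0% and 0% in HHC against 21.1% and 41.1% in CCC (-21.8 percentage points, unadjusted exact permutation p = 0.01, adjusted p = 0.240, with 9.43% of 10606 genes lower). In the 12-week cohort these body values overlapped, since HC replicate 1 lay above CC_s replicate 2. Outside its own promoter window the obese difference in the Icam1 body was -6.74 percentage points (exact permutation p = 0.333), and with the stronger peaks alone it was -16.0 (p = 0.167). Without HC and HHC replicate 3 the weight-loss difference in the body was -20.6 percentage points (exact permutation p = 0.0667), which missed the threshold.

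Itga4 encodes the integrin chain that binds Vcam1. H3K27me3 covered 2924, 2517 and 1924 bp of its window in C, 404 and 0 bp in H, 2067, 2346 and 1286 bp in CC_s, and 0, 330 and 833 bp in HC. In the 25-week cohort it covered 2686 and 1450 bp in CC_l, 1798 and 629 bp in HH, 3028 and 2445 bp in CCC, and 0, 2343 and 1429 bp in HHC. H did not overlap C, HC did not overlap CC_s and HHC did not overlap CCC, whereas HH replicate 2 lay above CC_l replicate 2. The weight-loss difference averaged -37.4 percentage points (unadjusted exact permutation p = 0.015, adjusted p = 0.366), and 7.90% of the 9058 genes tested were lower at that threshold. It was -41.2 without HC and HHC replicate 3 (exact permutation p = 0.0167), and without CCC replicate 1 the exact permutation p rose to 0.075. The call was not made with windows of 500 bp on either side (exact permutation p = 0.09) or by presence (p = 0.5). The obese difference was -38.8 percentage points with an unadjusted exact permutation p = 0.05, which missed the threshold. Over the body of Itga4 the weight-loss difference was -2.74 percentage points (unadjusted exact permutation p = 0.015, adjusted p = 0.267), a call not made with equal numbers of peaks or with the stronger peaks alone.

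At Icam4 the mark covered 71 and 507 bp of the window in CCC and 0, 0 and 0 bp in HHC, which counted as a loss, but the overlap of 71 bp in CCC replicate 1 was under 200 bp, and with a minimum of 200 bp it was not called. The Icam4 window takes in the last part of Icam1 and ends before Icam5. At Itgal, values ran from 0 to 2230 bp with no diet group apart from its control.

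In the 50 kb on either side of the genes, without the gene itself, H3K27me3 was lower in obese libraries around Icam1, Icam4, Itgax and Selplg, 4 of 10 genes, a call made for 6.75% of all genes. Around Icam1 it covered 2.14% and 3.84% in H against 4.17%, 6.93% and 10.8% in C, and 12.0% and 7.89% in HH against 14.6% and 14.2% in CC_l (-4.39 percentage points, unadjusted exact permutation p = 0.0333, adjusted p = 0.401). The Icam4 flanks, mostly the same bases, differed by -5.50 percentage points (unadjusted exact permutation p = 0.0333). Around Itgax the obese libraries had 0.464% to 1.20% and the controls 3.52% to 5.53% (-4.01 percentage points, unadjusted exact permutation p = 0.0167, adjusted p = 0.348). For Selplg the values were 0% and 0.844% in H, 2.4% to 9.50% in C, 9.19% and 1.24% in HH, and 13.6% and 10.0% in CC_l (-5.62 percentage points, unadjusted exact permutation p = 0.0333). After weight loss the flanks of Icam1 (-5.78 percentage points) and Icam4 (-6.75) were lower, each with an unadjusted exact permutation p = 0.005 and an adjusted p = 0.248, against 7.47% of all genes. None of the 4 obese flank calls was made when every H3K27me3 list was reduced to 21809 peaks.

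Over the 20 H3K27me3 libraries, the promoters whose cover was most like that of Icam1 were those of Jakmip1 (Pearson r = 0.94), Luzp2 (r = 0.92) and Tagln2 (r = 0.92). Among the adhesion genes with any H3K27me3 at the promoter, r with Icam1 was 0.57 for Itga4, 0.37 for Selplg, 0.29 for Icam4, 0.06 for Itgal and -0.14 for Itgb2. The points share libraries, cohorts and the number of peaks listed, so these values are given as a description.

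H3K4me3 was present at Icam4 in 21 of 21 libraries, at Icam1 in 17, at Itga4 in 14, at Vcam1 and Itgb2 in 12 each, at Icam2 in 8, at Selplg in 6, at Itgal in 3 and at Itgam and Itgax in 2 each. In the 25-week cohort more of these promoters carried it after the high-fat diet. Of the 10 promoters, 5 and 4 were marked in CC_l and 7 and 8 in HH, and 4 and 3 in CCC against 8, 9 and 8 in HHC. Over all promoters the share marked in HH averaged 63.5% ± 0.33 (SD, n = 2), beside 62.8% ± 0.03 (SD, n = 2) for the CC_l controls, and in HHC 64.7% ± 1.93 (SD, n = 3), beside 62.8% ± 0.40 (SD, n = 2) for CCC. In the 12-week cohort 4, 5 and 4 were marked in C, 7, 7 and 1 in H, 1, 1 and 1 in CC_s, and 3, 2 and 5 in HC. Of all promoters, 57.5% to 60.6% were marked in C and 54.9%, 55.4% and 41.7% in H. The shares were 46.4%, 47.9% and 55.3% in CC_s and 53.7%, 50.8% and 58.1% in HC. The single H library with 1 marked adhesion promoter was replicate 3, the one with the fewest peaks.

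**Figure D2:**
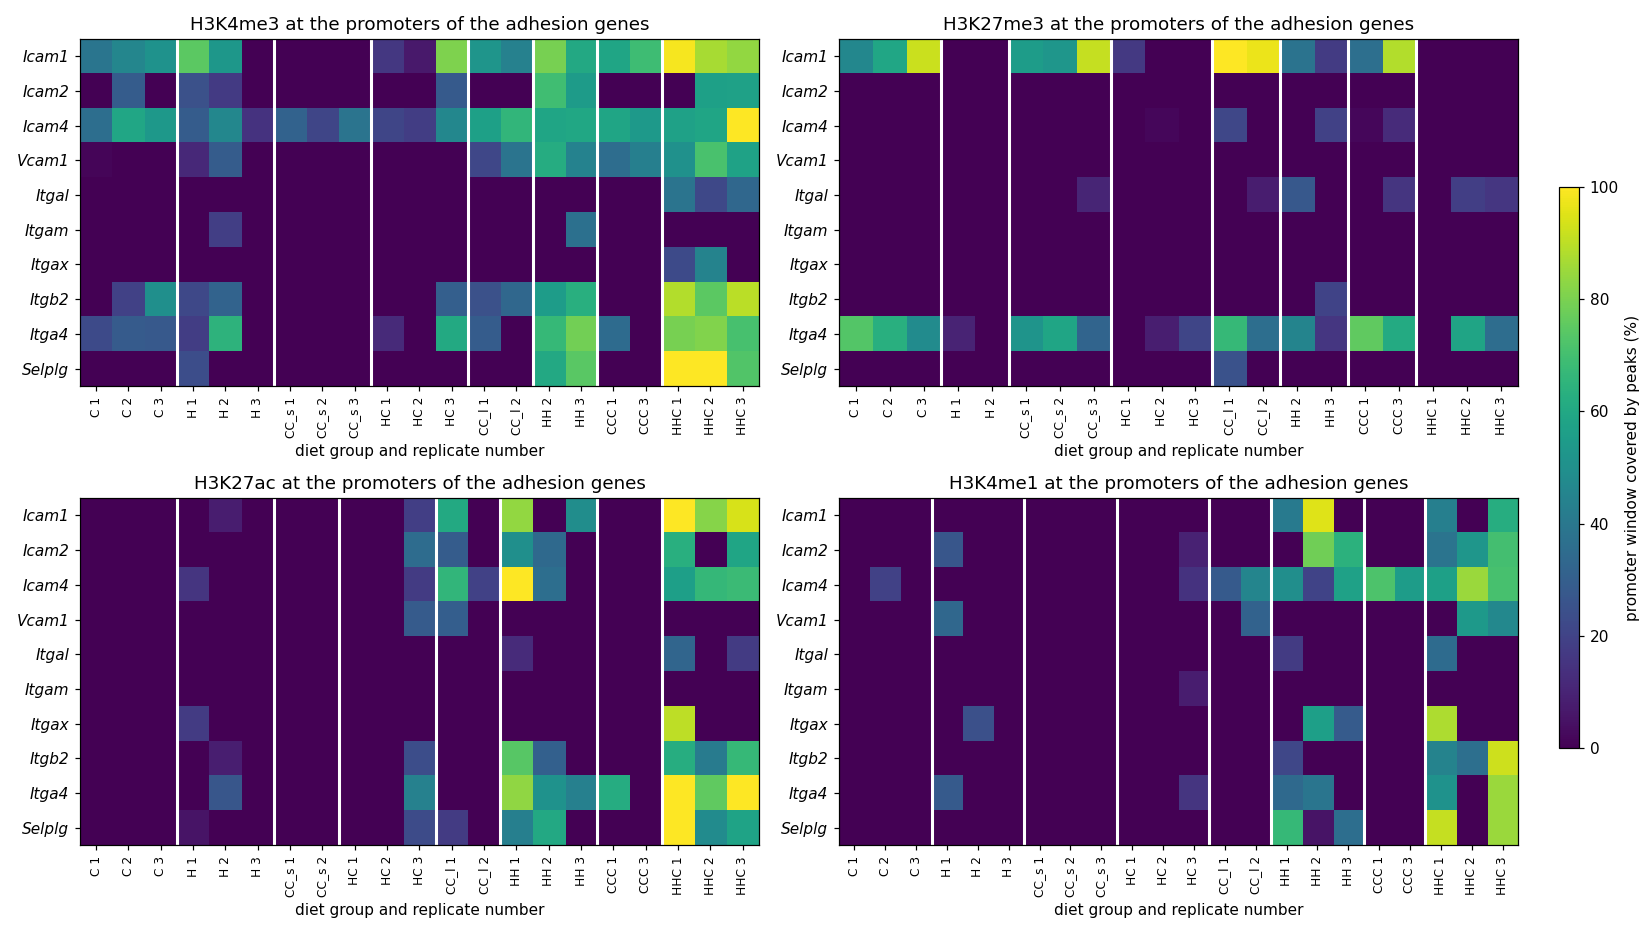
Share of each promoter window covered by peaks (colour, 0 to 100%) for the 10 adhesion genes (rows) in each library (columns, by diet group and replicate number), with 1 panel per mark. H3K27me3 lies mainly at Icam1 and Itga4, and the 3 other marks appear at more genes in HHC than in its age-matched control CCC.

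Icam1, the ligand of the integrins that contain Itgb2, carried H3K4me3 over 3948, 3471 and 3359 bp in HHC against 2346 and 2763 bp in CCC. In the 12-week cohort it covered 645, 278 and 3235 bp in HC and 0, 0 and 0 bp in CC_s, a gain that 0.320% of all promoters shared. Every weight-loss library lay above every control of its cohort. The averaged difference was 30.3 percentage points (unadjusted exact permutation p = 0.005, adjusted p = 0.723 over 15401 genes), and 20.2 percentage points without HC and HHC replicate 3 (exact permutation p = 0.0167, the smallest that these sizes allow). With windows of 500 bp on either side it was 17.9 percentage points (exact permutation p = 0.1), and the call was also not made by presence (p = 0.1), with equal numbers of peaks or with the stronger peaks alone (57.0 percentage points and p = 0.05 each). In obese libraries Icam1 gave 2999, 2124 and 0 bp in H against 1559, 1836 and 2042 bp in C, and 3184 and 2419 bp in HH against 2081 and 1754 bp in CC_l, so that HH lay above CC_l and H overlapped C.

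Itga4 carried H3K4me3 over 3180, 3240 and 2834 bp in HHC against 1395 and 0 bp in CCC, and over 476, 0 and 2430 bp in HC against 0, 0 and 0 bp in CC_s. HHC lay above CCC, while HC replicate 2 had no peak and so equalled the controls. The averaged difference was 41.9 percentage points (unadjusted exact permutation p = 0.02, adjusted p = 0.723), and Icam1 and Itga4 were the 2 of 9 adhesion genes tested that were higher, a call made for 3.19% of all genes. Without HC and HHC replicate 3 the Itga4 difference was 34.4 percentage points (exact permutation p = 0.0667), which missed the threshold, and the call was also lost when any single HHC or CCC library was left out, with either narrower window, by presence, with equal numbers of peaks and with the stronger peaks alone (exact permutation p = 0.05 to 0.08). Over the gene body Itga4 was higher by 4.11 percentage points (unadjusted exact permutation p = 0.02, adjusted p = 0.548), against 3.97% of all genes, and by 4.11 without HC and HHC replicate 3 (exact permutation p = 0.0667), which missed the threshold. Icam1 and Itga4 were also the 2 adhesion genes, of 4 tested, called for less H3K27me3 after weight loss. The share of all genes with both calls was not counted.

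Selplg had no H3K4me3 peak at its promoter in any of 10 control libraries. The mark covered 2410 and 2981 bp in HH, 4001, 4001 and 2910 bp in HHC and 940, 0 and 0 bp in H, and was absent from the HC lists. Selplg was called gained in HH against CC_l with Icam2, where 1.32% of all promoters were gained, and in HHC against CCC with Itgal and Itgb2, where 1.39% were. Icam2, an adhesion molecule of endothelium, had 2781 and 2191 bp in HH against 0 and 0 bp in CC_l, and 0, 2272 and 2295 bp in HHC against 0 and 0 bp in CCC. Itgb2, the common chain of the leukocyte integrins, had 2211 and 2527 bp in HH against 999 and 1335 bp in CC_l, and 3535, 2998 and 3592 bp in HHC against 0 and 0 bp in CCC. Itgal had H3K4me3 in HHC alone, at 3147, 1761 and 2728 bp of its 8152 bp windows. Without HHC replicate 3, Itgax was called as well, 4 genes in all. At H3K4me3 lists of 11249 peaks each, the calls of Icam1 in HC and of Icam2 and Selplg in HH were not made. Itga4 was called gained in HH instead. In HHC Selplg kept its call, Itgal and Itgb2 did not, and Icam1 and Itga4 were called. With the stronger peaks alone, the Icam1 gain in HC was not called. Vcam1, Itgb2 and Itga4 were then gained in HH in place of Icam2 and Selplg. In HHC Itgal, Itgb2 and Selplg kept their calls, and Icam1, Vcam1 and Itga4 were called as well.

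**Figure D3:**
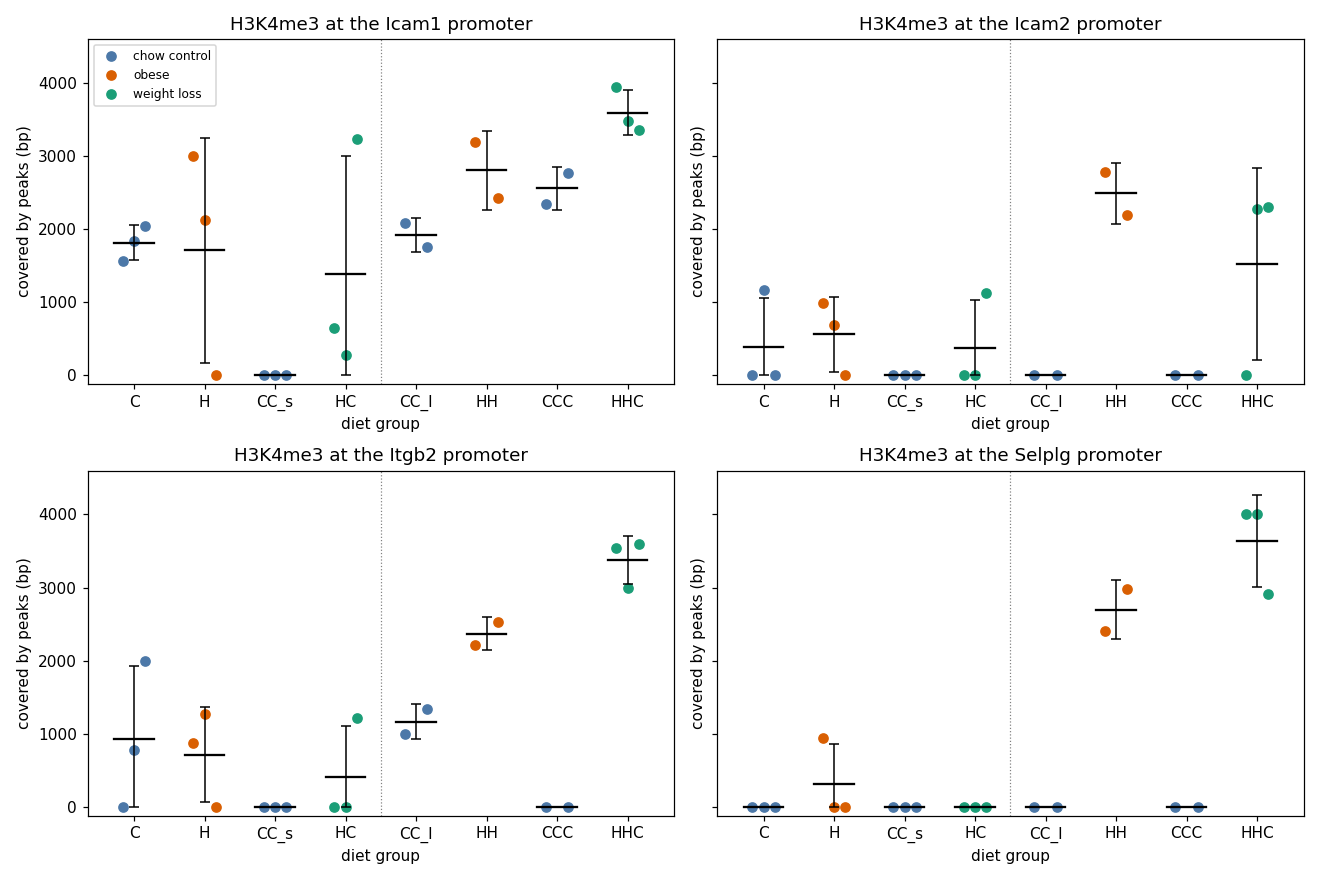
Base pairs of the promoter window covered by H3K4me3 peaks (y axis, bp) at Icam1, Icam2, Itgb2 and Selplg in each library, by diet group (x axis, 12-week cohort left of the dotted line). Points are libraries, horizontal lines means and bars the SD, cut at 0. Selplg is at 0 in every control library and between 2410 and 4001 bp in HH and HHC.

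Vcam1, the endothelial ligand of the integrin with Itga4, had 2615 and 1882 bp in HH against 900 and 1632 bp in CC_l, and 2142, 3015 and 2437 bp in HHC against 1517 and 1821 bp in CCC. These 25-week groups did not overlap, but in the 12-week cohort only 66 bp in C replicate 1 and 491 and 1228 bp in H were marked and the gene passed no test. Icam4 was marked throughout, at 597 to 4082 bp, and in none of the 4 comparisons did its diet and control groups lie apart. Itgam, the chain found on macrophages and neutrophils, had H3K4me3 only in H replicate 2 (746 bp) and HH replicate 3 (1487 bp). Itgax had it only in HHC replicates 1 and 2 (907 and 1786 bp).

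Under the treatment field of the labels, which for 4 H3K4me3 libraries of the 25-week cohort names another group than the title, the calls of Icam1 (27.7 percentage points, exact permutation p = 0.005) and Itga4 (25.2, exact permutation p = 0.02) were made as well. In HH neither gain was then made, and Itga4 was called lost instead. In HHC, Itgal alone was called gained, in place of 3 genes.

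In the 25-week cohort, promoters of macrophage, leukocyte and endothelial markers carried H3K4me3 more often after the high-fat diet, as those of the adhesion genes did. Of 10 macrophage markers (Adgre1, Cd68, Csf1r, Mrc1, Cd14, Lyz2, Tyrobp, Fcgr1, Trem2 and Cd163), 3 and 3 had an H3K4me3 peak in CC_l, 9 and 8 in HH, 4 and 2 in CCC and 9, 8 and 8 in HHC. In the 12-week cohort 2, 3 and 3 were marked in C and 8, 7 and 0 in H. Cd163 had no peak in any library of the 8 groups, and Adgre1, Mrc1, Lyz2, Fcgr1 and Trem2 were at 0 in CC_l and CCC. Of 9 pan-leukocyte and lymphocyte markers (Ptprc, Cd3e, Cd3g, Cd2, Lck, Cd79a, Ms4a1, Nkg7 and Coro1a), 4 and 2 were marked in CC_l, 8 and 6 in HH, 2 and 2 in CCC and 9, 9 and 8 in HHC. Of 10 endothelial markers (Cdh5, Tek, Kdr, Pecam1, Flt1, Emcn, Tie1, Egfl7, Cldn5 and Robo4), 4 to 8 were marked in CC_l, 10 in each HH library, 4 to 5 in CCC and 6 to 9 in HHC. In the 12-week cohort the leukocyte counts were not higher in H, with 3, 4 and 1 in C and 3, 3 and 0 in H. The endothelial counts were 3, 5 and 6 in C and 10, 8 and 0 in H. The summed H3K4me3 cover of the macrophage list was 58.7% to 148% of a window in CC_l, 349% to 637% in HH, 130% to 167% in CCC and 285% to 546% in HHC. For the leukocyte list it was 72.4% to 99.5%, 282% to 306%, 91.2% to 95.7% and 427% to 738% in the same order. In HC the marker counts followed replicate 3, with 5 macrophage and 6 leukocyte markers against 0 to 1 and 2 in the other libraries. The adipocyte list had 10 of 10 promoters marked in every 25-week library except HHC replicate 3, with 6. Of 5 mesothelial (Msln, Upk3b, Krt19, Wt1 and Lrrn4) and 5 progenitor markers (Pdgfra, Dpp4, Pi16, Dcn and Col1a1), at most 3 and 4 were marked by H3K4me3 in any library. The part of other cell types in these results was not tested.

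**Figure D4:**
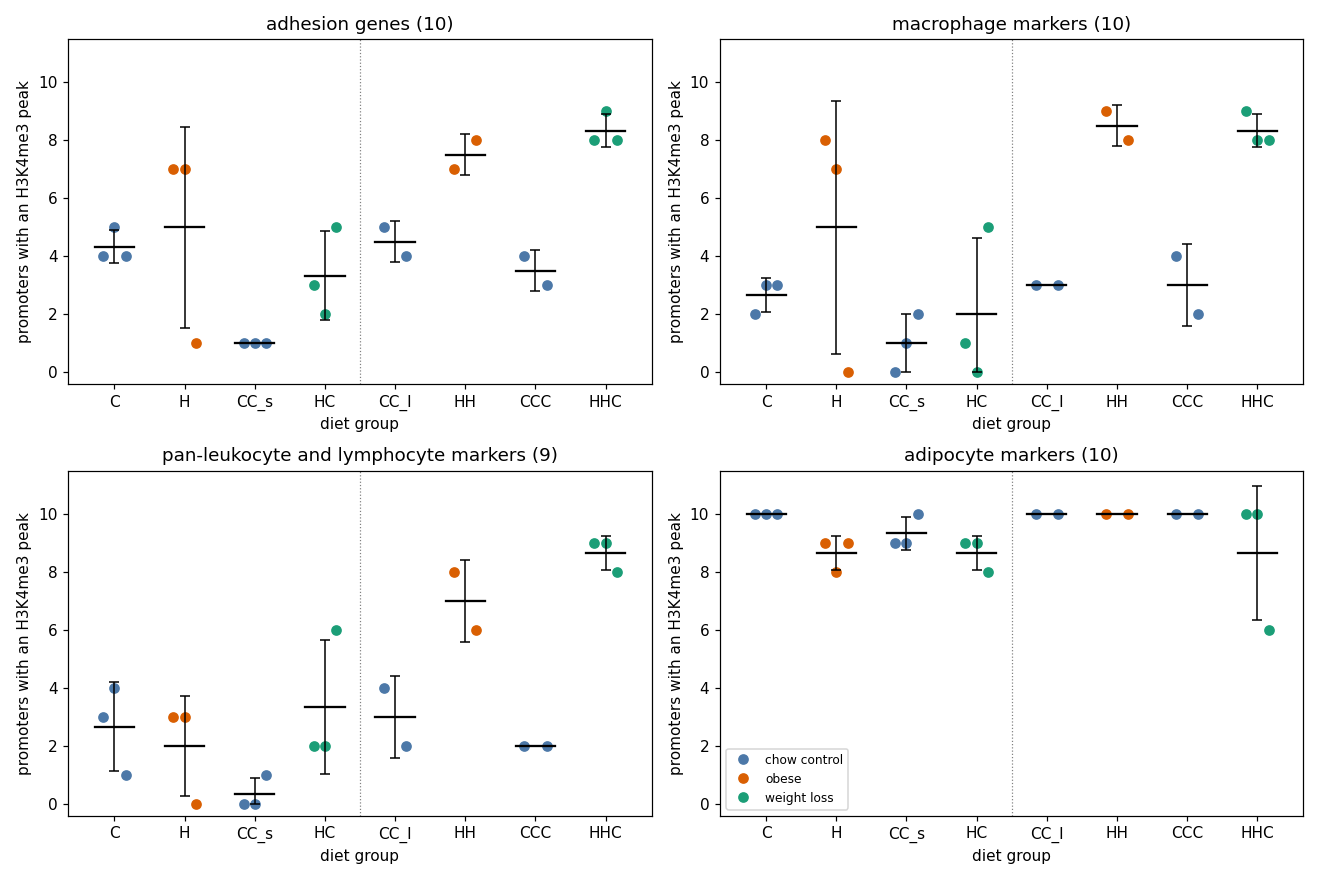
Number of promoters with an H3K4me3 peak (y axis) among the 10 adhesion genes, 10 macrophage markers, 9 pan-leukocyte and lymphocyte markers and 10 adipocyte markers in each library, by diet group (x axis). Points are libraries, horizontal lines means and bars the SD, cut at 0. The means of the adhesion genes and of the immune cell markers are highest in HH and HHC, where 7 to 9 adhesion genes are marked.

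For the H3K27me3 results the same lists gave other patterns. The macrophage list had 0 to 2 of 10 promoters with H3K27me3 in C, 0 to 1 in H, 0 to 2 in CC_s, 1 to 2 in HC, 1 to 6 in CC_l, 0 to 5 in HH, 2 to 3 in CCC and 2 to 7 in HHC. The endothelial list had summed H3K27me3 covers of 221% to 352% in C and 48.2% to 49.5% in H, 251% to 311% in CC_s and 7.31% to 64.4% in HC, but 241% to 413% in CC_l and 331% to 362% in HH, and 259% to 310% in CCC and 218% to 404% in HHC. Within the 12-week cohort the endothelial sum was lower beside the lower cover at Icam1 and Itga4, and within the 25-week cohort its ranges overlapped between diet and control. The mesothelial list was lower in H as well, with 96.9% to 114% against 180% to 246% in C, and so was the leukocyte list, with 29.6% to 29.7% against 55.3% to 104%. In HC both overlapped CC_s, with 51.4% to 160% against 150% to 281% and 0% to 53.1% against 40.1% to 117%. The adipocyte list overlapped between H and C (69.1% to 84.2% against 40.9% to 78.4%). So did the progenitor list (51.2% to 87.3% against 37.0% to 110%) and the macrophage list (0% to 7.52% against 0% to 133%). The part of these cells in the result was not tested.

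H3K27ac at the adhesion promoters was rare in the 12-week cohort. In C and CC_s 0 of 10 promoters were marked in each library, in H 3, 3 and 0, and in HC 0, 0 and 7, the 7 being in replicate 3. In the 25-week cohort the counts were 5 and 1 in CC_l, 7, 5 and 2 in HH, 1 and 0 in CCC and 8, 5 and 7 in HHC. Of all promoters, H3K27ac marked 36.7%, 38.9% and 36.6% in C and 39.1%, 30.2% and 20.8% in H. The shares were 29.03% and 40.4% in CC_s and 25.2%, 32.97% and 48.8% in HC. In the 25-week cohort they were 53.6% and 46.7% in CC_l and 55.1%, 49.7% and 44.2% in HH. CCC had 50.8% and 17.7%, and HHC 52.9%, 52.3% and 53.6%. The part of these shares in the counts was not tested. At Icam1 it covered 4001, 3282 and 3765 bp in HHC and 0 and 0 bp in CCC. Icam4 (2306, 2723 and 2788 bp), Itgb2 (2488, 1669 and 2684 bp) and Selplg (4001, 1929 and 2319 bp) were likewise marked in each HHC library and in no CCC library, so that 4 of 10 genes were gained, against 2.32% of all promoters. Itga4 was the 1 gene gained in HH, at 3333, 2047 and 1748 bp against 0 and 0 bp in CC_l, against 0.448% of all promoters. It had 4001, 3031 and 4001 bp in HHC but also 2482 bp in 1 of 2 CCC libraries. With equal numbers of peaks 0 of these 5 gains were called, and with the stronger peaks alone those of Icam1 and Icam4 were. Leaving out HHC replicate 3 and HH replicate 1 kept these calls, but leaving out diet libraries cannot remove a gain, so this decides nothing. CCC replicate 3 had only 14917 H3K27ac peaks, the fewest in its cohort, and marked 17.7% of all promoters against 50.8% in replicate 1. Of 9 genes tested, none passed the permutation test for H3K27ac at the promoter in either comparison (0 of 9 at an unadjusted p under 0.05). The macrophage list had 1 to 5 of 10 promoters with H3K27ac in CCC and 3 to 9 in HHC, and the leukocyte list 0 to 2 and 2 to 9 of 9, with HHC replicate 1 the highest in both. The part of these cells in the H3K27ac result was not tested.

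H3K4me1 was found at the Icam4 promoter in 12 of 22 libraries, at Icam2 in 7, Itga4 in 6, Selplg in 5, Icam1, Vcam1, Itgax and Itgb2 in 4 each, Itgal in 2 and Itgam in 1. Selplg had 2680, 208 and 1443 bp in HH and 0 and 0 bp in CC_l, the 1 adhesion gene gained there (2.00% of all promoters were). Icam2 (1534, 2101 and 2806 bp) and Itgb2 (1789, 1469 and 3692 bp) were gained in HHC against CCC, where 3.98% of all promoters were. Without HH replicate 1, Icam2 and Itgax were called gained in HH too. With equal numbers of peaks, and with the stronger peaks alone, none of the 3 gains was called. The macrophage list had H3K4me1 at 2 and 3 promoters in CC_l, 3, 5 and 2 in HH, 1 and 3 in CCC and 3, 3 and 4 in HHC, and the leukocyte list at 0 and 1, 3, 1 and 0, 0 and 1, and 7, 2 and 4. Their part in the result was not tested. No adhesion gene passed the permutation test for H3K4me1 at the promoter (0 of 9 in obese and 0 of 10 in weight-loss libraries at an unadjusted p under 0.05).

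**Figure D5:**
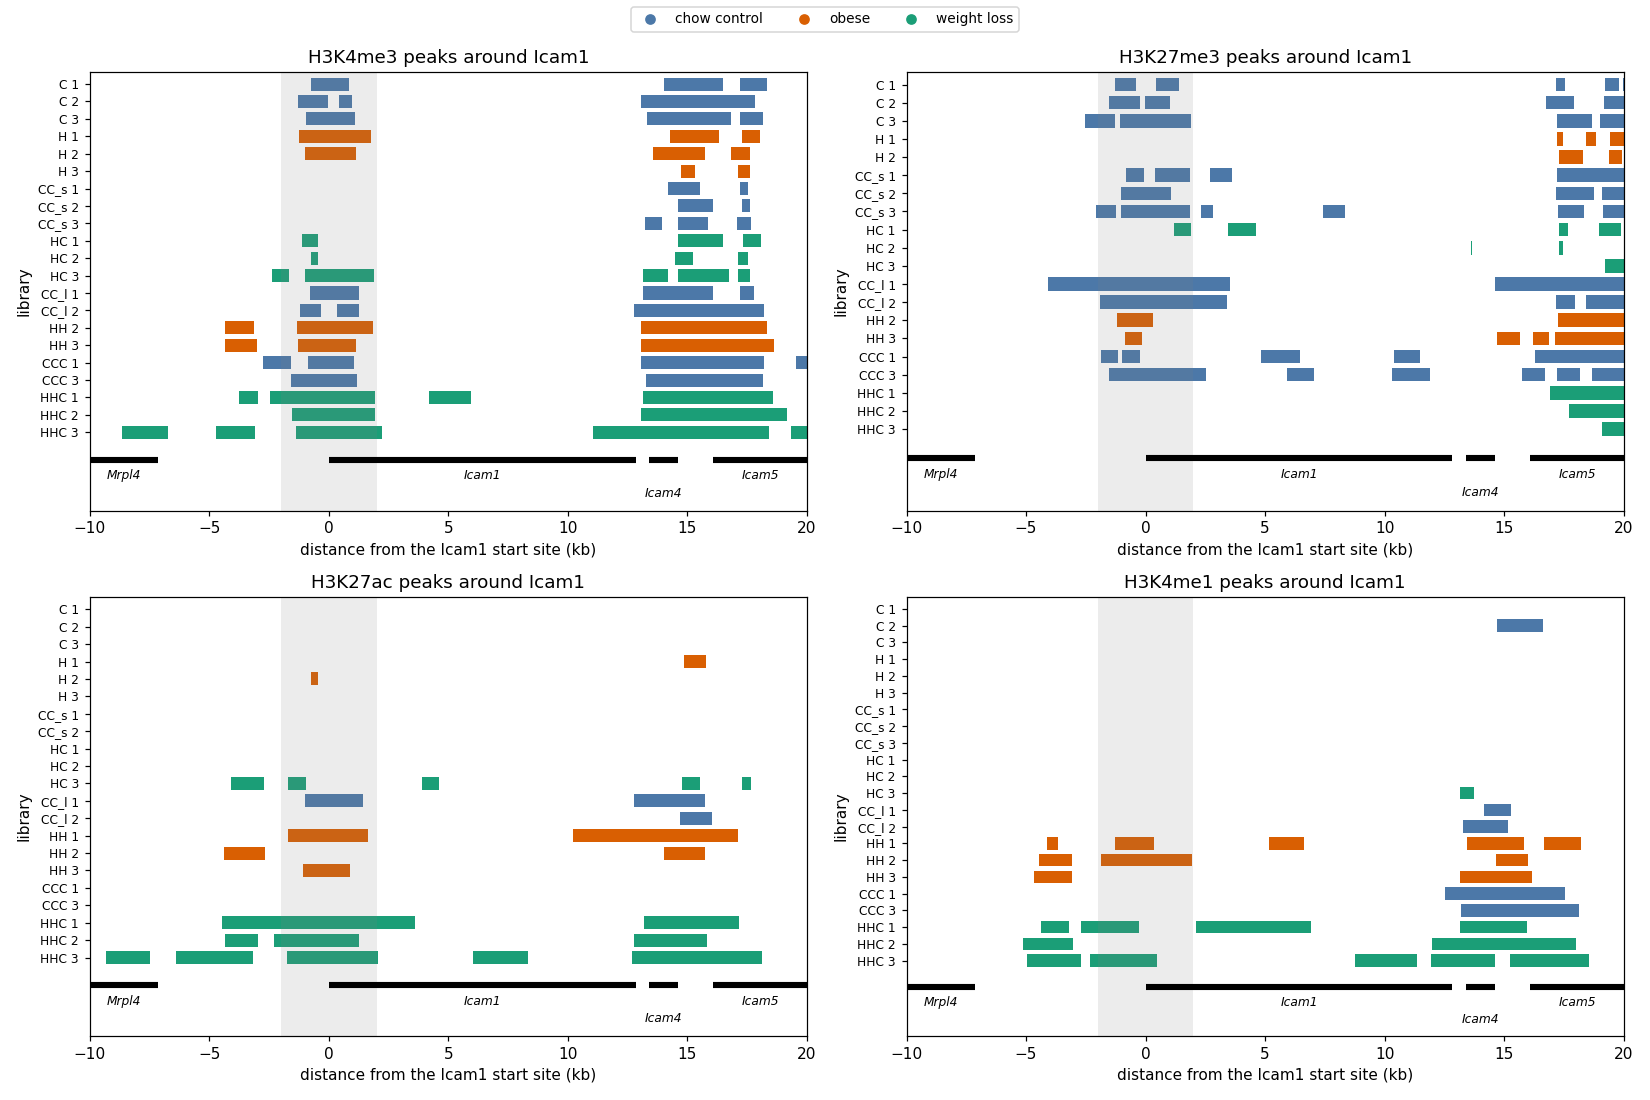
Peaks of each mark around Icam1, with distance from its start site (x axis, kb) and libraries as rows. Bars span peaks, the grey band is the promoter window, and black lines below are genes. H3K27me3 in that band is missing in H, HC replicates 2 and 3 and HHC, and H3K4me1 peaks about 4 kb upstream occur in HH and HHC only.

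A single distal region of the 10 loci was gained in both comparisons of a cohort, and it lay upstream of Icam1. Of 59 distal H3K4me1 regions within 50 kb of the genes, the one at chr9:21010859-21013284, centred 3.91 kb upstream of the Icam1 start site, between Mrpl4 and Icam1 and in no annotated gene, was marked in 3 of 3 HH and 3 of 3 HHC libraries and in 0 of 2 CC_l, 0 of 2 CCC and 0 of 12 libraries of the 12-week cohort. Of all distal H3K4me1 regions of the genome, 0.677% were gained in both comparisons of that cohort. The peaks measured 491, 1389 and 1572 bp in HH and 1140, 2103 and 2266 bp in HHC. All 6 peaks shared 491 bp, and the 300 bases in the middle of the shared part are shown, in the same format, because they are the part marked in each of the 6 libraries.
Icam1 upstream region (chr9:21011936-21012235): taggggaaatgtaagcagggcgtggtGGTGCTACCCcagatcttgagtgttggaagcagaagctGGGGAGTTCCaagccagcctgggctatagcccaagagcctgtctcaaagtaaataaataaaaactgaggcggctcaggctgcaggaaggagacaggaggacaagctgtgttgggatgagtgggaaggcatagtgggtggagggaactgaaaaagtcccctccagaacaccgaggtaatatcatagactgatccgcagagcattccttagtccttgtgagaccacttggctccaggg
These bases held GGTGCTACCC and GGGGAGTTCC, which match the looser NF-kB letters, and none of the other letter patterns. H3K4me3 peaks lay in this region in 2 of 2 HH libraries, in 2 of 3 HHC libraries and, over 51 bp, in 1 of 2 CCC libraries. H3K27ac covered 1786, 1362 and 1952 bp of it in HHC, 1688 bp in 1 of 3 HH libraries, 1399 bp in HC replicate 3 and 0 bp in every control library. H3K27me3 was found there in CC_l replicate 1 only. Without HH replicate 1 and HHC replicate 3, 2 of 2 and 2 of 2 libraries carried H3K4me1 there, which had to follow from 3 of 3 in each group.

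Of the 59 distal H3K4me1 regions, 2 were gained in H, at Itgax and Selplg (1.03% of 54813 distal regions of the genome were), 2 in HH, at Icam1 and Icam2 (1.86%), 2 in HHC, at Icam1 and Selplg (3.05%), and 1, within Itgax, was lost in HHC (2.30%). The differences in the share of libraries marked, summed over the 4 comparisons, were largest at 2 regions near Selplg, followed by 3 with equal sums at Icam1, Icam2 and Itgam. The first Selplg region, chr5:113775654-113785305, is centred downstream of the Selplg start site, overlaps an exon of Iscu, and was marked by H3K4me1 in 3 of 3 HH, 3 of 3 HHC, 2 of 3 H and 2 of 3 HC libraries, against 0 of 3 C, 0 of 3 CC_s, 1 of 2 CC_l and 0 of 2 CCC. A neighbour at chr5:113788312-113793384, in no gene, was marked in 2, 2, 2 and 1 diet libraries and in no control. The Icam2 region, chr11:106386091-106392896, overlaps the upstream end of the annotated Icam2 gene and no exon, and was marked in 3 of 3 HH, 2 of 3 HHC, 1 of 3 H and no control library. The Itgam region, chr7:128047754-128052028, is in no gene, is centred 12.7 kb upstream of the Itgam start site, and was marked in 2 of 3 H, 2 of 3 HHC, 1 of 3 HC, 1 of 3 HH and no control library.

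For H3K27ac, 68 distal regions were counted and 2 were gained in HHC (2.44% of 59399 regions of the genome), both at Selplg. At chr5:113775228-113777957, which overlaps an exon of Iscu, H3K27ac was found in 3 of 3 HHC, 2 of 3 HH, 2 of 3 H and 1 of 3 HC libraries and in no control library. At chr5:113778909-113781886, in no gene, it was found in 3 of 3 HHC and 0 of 2 CCC libraries, but also in 2 of 2 CC_l. At chr5:113840072-113845655, over exons of Coro1c and its antisense Gm17122, it was found in 3 of 3 HH, 3 of 3 HHC, 2 of 3 H and 1 of 3 HC libraries and in 1 of 2 CC_l and 1 of 2 CCC. At Itgam, H3K27ac was found at chr7:128048343-128051807, in no gene, in 2 of 3 HHC, 1 of 3 H, 1 of 3 HC and 1 of 3 HH libraries and in no control library. At chr7:128135729-128142645, over an exon of Itgax, it was found in 2 of 3 HH, 2 of 3 HHC and 1 of 3 H libraries and in no HC or control library. These regions lie near other genes as well, and which gene they serve is not known from peaks.

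Around the genes, H3K4me1 was higher in obese libraries over the flanks of 6 of 10 (Icam2, Itgam, Itgax, Itgb2, Itga4 and Selplg), against 7.86% of 17822 genes tested. Selplg was the clearest: peaks covered 15.3%, 12.3% and 3.80% of its flanks in H against 3.26%, 4.02% and 1.20% in C, and 21.3%, 24.6% and 21.8% in HH against 8.30% and 12.4% in CC_l. HH lay above CC_l, while H replicate 3 overlapped C. The difference was 9.94 percentage points (unadjusted exact permutation p = 0.01, adjusted p = 0.241). It was 5.73 percentage points (exact permutation p = 0.005) with 14486 peaks in every H3K4me1 list, and after weight loss 10.2 percentage points (unadjusted exact permutation p = 0.025, adjusted p = 0.582), against 4.28% of all genes. The other 5 genes differed by 1.11 to 4.69 percentage points with unadjusted exact permutation p-values of 0.02 to 0.04, and with equal numbers of peaks none of the 5 was called. Without HH replicate 1, 3 of the 6 were called (Itgam, Itgax and Selplg), and the weight-loss call of Selplg was not made without HC and HHC replicate 3 (9.13 percentage points, exact permutation p = 0.0667) or with equal numbers of peaks (6.25, p = 0.07).

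Over gene bodies, H3K4me1 was higher in obese libraries at 2 of 10 genes, against 5.05% of 14081. At Itgb2 it covered 10.7%, 10.6% and 0% in H against 2.94%, 0% and 0% in C, and 25.0%, 21.3% and 18.4% in HH against 4.21% and 4.44% in CC_l (11.7 percentage points, unadjusted exact permutation p = 0.02, adjusted p = 0.338). At Itgax, the chain carried by macrophages of obese fat, it covered 5.06%, 0.374% and 4.06% in H against 0%, 0% and 0% in C, and 6.82%, 14.4% and 17% in HH against 0% and 9.95% in CC_l (5.47 percentage points, unadjusted exact permutation p = 0.045, adjusted p = 0.414). Without HH replicate 1 the Itgax difference was 6.95 and the Itgb2 difference 10.8 percentage points (exact permutation p = 0.0167 and 0.0667), and with equal numbers of peaks neither was called. With the stronger peaks alone the Itgax difference turned to -0.612 percentage points (exact permutation p = 1).

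H3K27ac was lower in obese libraries over the flanks of Itgal, 1 of 10 genes, against 21.9% of 18011 genes. It covered 1.16%, 1.06% and 1.55% in H against 7.81%, 7.46% and 2.98% in C, and 11.2%, 9.87% and 10.6% in HH against 16% and 13.2% in CC_l (-4.45 percentage points, unadjusted exact permutation p = 0.005, adjusted p = 0.0998). The groups did not overlap in either cohort, and lower H3K27ac in obese libraries was the more common direction among all genes, with 3942 lower and 87 higher. The difference was -4.83 percentage points in the 12-week cohort, where the H lists were low in adipocyte markers, -4.08 in the 25-week cohort, and -4.62 over both without HH replicate 1 (exact permutation p = 0.0167). H3K4me3 over the flanks of Itgb2 was higher after weight loss (4.01 percentage points, unadjusted exact permutation p = 0.03, adjusted p = 0.565), against 4.58% of all genes, and was not called without HC and HHC replicate 3 (3.25 percentage points, exact permutation p = 0.183), at equal peak numbers (1.88, p = 0.38) or under the treatment field (p = 0.065).

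Combinations of marks were read in the 19 sets in which a group and replicate number had a library of each mark, the labels giving the number but not the animal. At Icam1 H3K4me3 and H3K27me3 were both listed in 10 of 19 sets, H3K4me3 without H3K27me3 in 7 and H3K27me3 alone in 2. At Itga4 the counts were 11, 3 and 5. H3K27ac with H3K27me3 occurred in 2 sets at Icam1 and 6 at Itga4. Icam2, Vcam1, Itgam and Itgax had no H3K27me3 in any set, and Itgam had no listed mark in 16 of 19. In pooled nuclei the marks need not lie on the same chromosomes.

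Other genes of leukocyte adhesion and passage through vessel walls were given by a list of 30. At their promoters H3K4me3 was higher after weight loss in 3 of 26 tested and lower in 0, namely Itgb7 (36.3 percentage points), Pecam1 (32.7) and Cdh5 (36.1), the last 2 being junction molecules of endothelium (unadjusted exact permutation p = 0.02, 0.02 and 0.04), beside the 3.19% of all genes given above. H3K27me3 was lower after weight loss at Cdh5 (-46.3 percentage points, exact permutation p = 0.005) and Icam5 (-24.9, exact permutation p = 0.01), 2 of 20 beside 7.90% of all genes, and in obese libraries at Podxl (-19.2, exact permutation p = 0.0333), 1 of 15 beside 6.01%. H3K4me1 was higher after weight loss at Itgb7 (43.5, exact permutation p = 0.01) and Tln1 (23, exact permutation p = 0.015), 2 of 25 beside 1.30% of all genes, and lower in obese libraries at Jam2 (-14.1, exact permutation p = 0.045), 1 of 23 beside 1.60%. H3K27ac was higher after weight loss at Cd44 (42.9, exact permutation p = 0.04), 1 of 27 beside 1.55% of all genes, and lower in obese libraries at Mcam (-35.1, exact permutation p = 0.045), 1 of 23 beside 14.7%. H3K4me3 in obese libraries was called at 0 of 25 in the permutation test at an unadjusted p under 0.05, beside 3.68% of all genes in either direction. The adjusted p of these genes was 0.281 or more. Cdh5 and Pecam1 also stand in the endothelial list, and Icam5 lies beside Icam4.

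Over the adhesion genes with a peak, the median difference of promoter cover after weight loss was 23.7 percentage points for H3K4me3 (9 genes), 32.5 for H3K27ac (9 genes) and 17.2 for H3K4me1 (10 genes), beside 2.13, 7.75 and 5.74 over all genes tested. In obese libraries it was 15.3 (8 genes), 6.70 (9 genes) and 16.9 (9 genes), beside -4.59, -7.30 and 3.63. For H3K27me3 it was -20.3 after weight loss (4 genes) and -3.38 in obese libraries (6 genes), beside 0.850 and -3.79. Genes without a peak in the libraries compared have no value and are left out of these medians. A gene marked in no control library enters only through its diet libraries, and its difference cannot be below 0. This holds for Itgal, Itgam, Itgax and Selplg with H3K4me3 and for all but Icam4 and Vcam1 with H3K4me1 (0 of 10 control libraries each). It also holds for Itgb2 with H3K27me3 (0 of 10) and for Itgal, Itgax and Itgb2 with H3K27ac (0 of 9 each). In the controls of the weight-loss comparison, H3K27ac was found at no gene but Itga4. Those controls also had no H3K4me3 at Icam2 and Itgb2 and no H3K4me1 at Vcam1. How many such genes stand among all genes was not counted, so the medians are given as a description. Whether the effect on promoter cover differed between the cohorts was tested for 64 combinations of gene, mark and comparison, and 0 had an unadjusted p under 0.05 in the exact permutation test (smallest p = 0.05). No gene of the annotation had an adjusted p under 0.05 in any of the comparisons of cover, for any mark.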

How the data were processed

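CUT&Tag was performed by the authors on labelled adipocyte nuclei of epididymal fat. The submitters' processing notes name Trim Galore 0.6.6, Bowtie2 2.4.4, SAMtools 1.13, bedtools 2.30 and SEACR 1.3, and the build is GRCm38. The authors deposited 1 stringent peak list per library, with the total and maximum signal of each peak in unscaled coverage, so signal was not compared between libraries and only ranked within one. Depth is unknown, since no read totals were used here. The number of peaks is given in its place.

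Peaks overlapping a window by at least 1 bp counted as present, and covered base pairs were divided by the width of the window, gene or flanks (50 kb on each side, without the gene). Windows spanned 2000 bp on either side of the 41438 start sites of 21851 protein-coding genes (GENCODE, GRCm38). Obese (H against C, HH against CC_l) and weight-loss groups (HC against CC_s, HHC against CCC) were compared with age-matched controls by exact permutation within cohorts, two-sided, of the difference averaged over both cohorts. Every gene with a peak in the libraries compared was tested and the p-values were adjusted by Benjamini-Hochberg, with a threshold of 0.05 on the unadjusted p. The count model of the study needs reads and was not used. A promoter or region was called gained where every diet library and no control library had a peak, and lost in the reverse case. All 10 genes are described, a test is printed where p fell under the threshold, and at most 3 genes of the pathway list are named per comparison. Replicates are labelled as biological. A p-value is the share of label exchanges within cohorts that gave a difference at least as large in either direction.

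Group labels came from the titles. The treatment field names another group for 4 H3K4me3 libraries in the 25-week cohort, and that grouping was tried as an alternative. The other alternatives were narrower windows, 1 start site per gene, presence, a longer overlap, equal numbers of peaks, the stronger peaks only, genes outside their windows, a replicate block and leaving out libraries. One marker of the leukocyte list is not reported here, and the list was used without it. The genes, lists and tests were chosen with earlier results of these data known. Python 3.11.15, numpy 2.4.6, pandas 2.3.3, scipy 1.17.1 and matplotlib 3.10.9 were used, and the tests were checked on simulated data. Sequences are from RefSeq (GRCm38.p6).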

Additional observations from a re-analysis of the deposited data

How the results depend on the processing

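Counts of adhesion genes are given as the reported count, then the count under the alternative. With windows of 1000 bp the promoter calls went from 2 to 1 for H3K4me3 after weight loss and from 1 to 2 for H3K27me3 in obese libraries, and the genes gained or lost from 0 to 1 (H3K27me3, HC), 2 to 1 (H3K27me3, HHC) and 1 to 0 (H3K4me1, HH). With 500 bp the weight-loss calls went from 2 to 0 (H3K4me3) and 2 to 1 (H3K27me3), and with presence alone from 2 to 0 and 2 to 1, and the obese H3K27me3 call from 1 to 0. An overlap of 200 bp left 1 of 2 genes lost in HHC.

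With equal numbers of peaks the H3K4me3 weight-loss calls went from 2, 1 and 1 at promoters, bodies and flanks to 0 each, H3K27me3 body calls after weight loss from 2 to 1, H3K27me3 flank calls in obese libraries from 4 to 0, and H3K4me1 obese calls from 2 to 0 in bodies and 6 to 1 in flanks. Genes gained or lost then went from 1 to 0 (H3K4me3, HC), 2 to 1 (H3K4me3, HH), 2 to 0 (H3K27me3, HHC), 1 to 0 (H3K27ac, HH), 4 to 0 (H3K27ac, HHC), 1 to 0 (H3K4me1, HH) and 2 to 0 (H3K4me1, HHC). With the stronger peaks alone the calls went from 2 to 0 at promoters and 1 to 0 in bodies (H3K4me3, weight loss), 1 to 0 and 2 to 1 in bodies (H3K27me3, obese and weight loss) and 2 to 0 in bodies (H3K4me1, obese), where the Itgax difference reversed to -0.612 percentage points (exact permutation p = 1). Genes gained or lost went from 1 to 0, 2 to 3 and 3 to 6 (H3K4me3, HC, HH and HHC). They went from 0 to 2, 0 to 1 and 2 to 0 (H3K27me3, HC, HH and HHC). For H3K27ac they went from 1 to 0 (HH) and 4 to 3 (HHC), and for H3K4me1 from 1 to 0 (HH) and 2 to 0 (HHC). The cause of these changes was not tested.

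Outside the promoter windows the body calls went from 1 to 0 (H3K4me3, weight loss), 1 to 0 (H3K27me3, obese) and 2 to 1 (H3K4me1, obese). Under the treatment field the H3K4me3 flank call went from 1 to 0. The genes gained or lost went from 2 gained to 1 lost (HH) and from 3 to 1 gained (HHC). Leaving out HC replicate 3, HHC replicate 3 and HH replicate 1 of every mark, an alternative chosen after seeing the data, moved the weight-loss calls from 2 to 1 (H3K4me3 promoters), 1 to 0 (H3K4me3 bodies and flanks), 2 to 1 (H3K27me3 bodies) and 1 to 0 (H3K4me1 flanks), the obese H3K4me1 calls from 2 to 1 (bodies) and 6 to 3 (flanks), and the genes gained in HH for H3K4me1 from 1 to 3.

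Leaving out 1 library at a time, promoter calls ranged from 0 to 2 and 1 to 3 for H3K4me3 (obese, weight loss), 0 to 2 and 1 to 2 for H3K27me3, 0 to 1 for H3K27ac (obese) and 0 to 1 for H3K4me1 (weight loss). Body calls ranged from 0 to 2 and 0 to 2 for H3K4me3, 0 to 2 for H3K27me3 (obese) and 0 to 1 and 0 to 1 for H3K4me1. Flank calls ranged from 0 to 1 and 0 to 4 for H3K4me3, 0 to 4 for H3K27me3 (obese), 1 to 2 for H3K27ac (obese), and 2 to 5 and 0 to 2 for H3K4me1. Genes gained or lost ranged from 1 to 2 (H3K4me3, HC), 1 to 2, 0 to 1 and 0 to 1 (H3K27me3, H, HC and HH), 1 to 2 (H3K27ac, HH), and 1 to 3 and 2 to 5 (H3K4me1, HH and HHC). Leaving out a library can add a gain or loss but cannot remove one. The Icam1 H3K27me3 weight-loss difference kept its call with each library left out, at -74.6 to -48.7 percentage points (exact permutation p = 0.01 to 0.0167).

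The replicate block took each of the 13 counts above 0 from a test to 0. With 3 to 5 numbered pairs, depending on the comparison, its smallest possible exact p is 0.25 to 0.0625, so it cannot pass the threshold. The numbers did not pair the libraries: over 36 pairs, the correlation of deviations ran from -0.442 to 0.312 and was above 0.1 in 9. Depth limits what is listed, and a promoter below a list's lowest peak is not shown to lack the mark.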
